A study of Mus musculus with 2 samples.

Results

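Adventitial Pi16 and Dpp4 fibroblasts of the mouse pancreas were taken from single-cell libraries by a rule on UMIs, the molecule counts of each cell barcode. A member had at least 1000 UMIs and at most 25% of them from mitochondrial genes. The matrix genes Col1a1, Col1a2, Col3a1 and Dcn together made up at least 1% of its UMIs, and Pi16, Dpp4 and Sema3c summed to at least 3 UMIs. Leukocytes, mesothelial cells and neutrophils were kept out by limits on Ptprc (at most 1 UMI), on Msln, Upk3b, Lrrn4, Upk1b and Gpm6a (at most 3 UMIs in sum) and on Csf3r, Cxcr2 and Mmp9 (under 0.1% of UMIs). Of 22352 barcodes, 1391 were members, 905 in the CP+EVs library and 486 in the CP library.

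The study captured dissociated mouse pancreas on the BD Rhapsody system and consists of 2 libraries. The CP+EVs library came from Cae-treated animals that also received extracellular vesicles, and the CP library from animals with Cae alone. The title speaks of chronic pancreatitis and of exercise-induced vesicles, while the condition label of both libraries names acute pancreatitis. Strain, age, dose, timing and the number of animals behind each library have no label here, and no sort is named. With 1 library a group there was no test. Values are CPM, the UMIs of a gene scaled to a common total over a set of cells. Intervals are 95% intervals that cover counting error only, and each difference compares these libraries and not the treatments.

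Pi16 is a secreted peptidase inhibitor, and Dpp4, also known as CD26, is a cell-surface dipeptidyl peptidase. Fibroblasts that carry both line the adventitia of vessels and the outer layers of many mouse organs. They share Ly6a, Cd34, Cd55 and the microfibril protein Mfap5, and they are often described as progenitor-like cells that give rise to other fibroblasts. Fibroblasts that lie within the parenchyma instead carry Penk and Col15a1, a collagen of the basement membrane zone. In injured pancreas, fibroblasts are a known source of collagen, chemokines and acute-phase proteins.

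Pi16 (chr17:29317680-29330593, plus strand), Dpp4 (chr2:62330073-62412231, minus strand) and Sema3c (chr5:17574281-17730268, plus strand) chose the cells, so their levels are given as a description. All coordinates are those of GENCODE vM21 on the mm10 build. Pi16 stood at 540 CPM (95% interval 524 to 557) in CP+EVs members and 125 CPM (117 to 134) in CP members. Dpp4 stood at 569 CPM (552 to 586) in CP+EVs members and 344 CPM (330 to 359) in CP members. Sema3c, a secreted semaphorin, stood at 816 CPM (796 to 837) in CP+EVs members and 249.6 CPM (238 to 262) in CP members. All 3 levels were the higher in CP+EVs members, and Pi16 differed most. The floor of 3 UMIs is a larger part of the UMIs of a shallower cell. Median depth was 7609 UMIs in CP+EVs members and 12585.5 UMIs in CP members. The part of depth in these 3 levels was not tested. A UMI of Pi16 was found in 80.0% of CP+EVs members and 59.3% of CP members, of Dpp4 in 91.6% and 92.0%, and of Sema3c in 84.3% and 78.4%. After thinning each cell to 1000 UMIs these shares were 35.5% and 12.1% for Pi16, 42.9% and 36.2% for Dpp4 and 45.9% and 24.5% for Sema3c, in CP+EVs and CP members in that order. In leukocytes, which should lack Pi16, the thinned share was 3.08% in CP+EVs and 2.26% in CP, at median depths of 4332 and 3061 UMIs before thinning. All 3 genes had a UMI in 63.2% of CP+EVs members and 44.0% of CP members, and Sema3c without Pi16 or Dpp4 in 2.21% and 3.29%.

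Of the markers given for these cells, Mfap5 alone was not part of the rule. It stood at 2627 CPM in CP+EVs members and 1335 CPM in the other CP+EVs fibroblasts, and at 1570 CPM in CP members and 931 CPM in the other CP fibroblasts. Other fibroblasts are the 588 CP+EVs and 1013 CP cells that met every condition but the sum of Pi16, Dpp4 and Sema3c. Dcn, the collagen-binding proteoglycan decorin, is a matrix gene of the rule and did not set the members apart, with 11517 CPM in CP+EVs members and 14556 CPM in the other CP+EVs fibroblasts, and 7073 CPM in CP members and 6666 CPM in the other CP fibroblasts. Markers of endothelium and of pericytes were low in sum. Summed over 9 endothelial genes, members held 54.7 CPM in CP+EVs and 11.1 CPM in CP. Summed over 11 pericyte and smooth muscle genes, they held 13.96 CPM in CP+EVs and 53.7 CPM in CP, and 2 of those genes were at 0 in each library. The rule capped 5 mesothelial genes. The list of 13 mesothelial genes summed to 164 CPM in CP+EVs and 323 CPM in CP, of which Wt1 alone gave 118 CPM and 293 CPM.

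The libraries were unequal in depth and in transcripts of other cells. Members had a median of 7609 UMIs and 2706 genes in CP+EVs and of 12585.5 UMIs and 3603 genes in CP, while the other fibroblasts had medians of 3276.5 UMIs in CP+EVs and 1687 UMIs in CP. Members summed to 7519583 UMIs in CP+EVs and 6549268 UMIs in CP. The 17 acinar genes, which fibroblasts do not make, held 2.65% of the UMIs of CP+EVs members and 0.0093% of those of CP members, and the 9 neutrophil genes 43.9 CPM and 831 CPM. S100a8 stood at 7.58 CPM in CP+EVs members and 231 CPM in CP members. The 10 leukocyte genes summed to 1021 CPM in CP+EVs members and 1581 CPM in CP members, and the 7 stellate cell genes to 108 CPM and 223 CPM. The part of such transcripts in the ratios of other genes was not tested. The libraries shared 118 cell barcodes, of which 10 were members in CP+EVs, 7 were members in CP and 0 were members in both.

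More fibroblasts met the rule in the CP+EVs library. Members made up 60.6% of 1493 CP+EVs fibroblasts (95% exact interval 58.1 to 63.1) and 32.4% of 1499 CP fibroblasts (30.1 to 34.9). Among barcodes that passed the UMI and mitochondrial limits they made up 13.2% of 6849 in CP+EVs and 5.77% of 8426 in CP. The rule counts molecules, so the share depends on depth. Between 1000 and 2000 UMIs a cell, 16.4% of CP+EVs and 4.67% of CP fibroblasts were members. Between 8000 and 16000 UMIs, 85.9% of 434 CP+EVs and 67.8% of 264 CP fibroblasts were members. In all 5 depth bands the CP+EVs share was the higher, and in the deepest band the intervals overlapped (82.8 to 98.7 in CP+EVs and 73.3 to 84.6 in CP). With fibroblasts of at least 5000 UMIs thinned to exactly that depth, 66.0% of 880 CP+EVs cells and 38.3% of 609 CP cells still held at least 3 UMIs of the 3 genes. The size of the difference follows the setting, from 1.17 times as high in CP+EVs among cells of at least 5000 UMIs to 4.88 times when every cell was first thinned to 1000 UMIs.

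**Figure D1:**
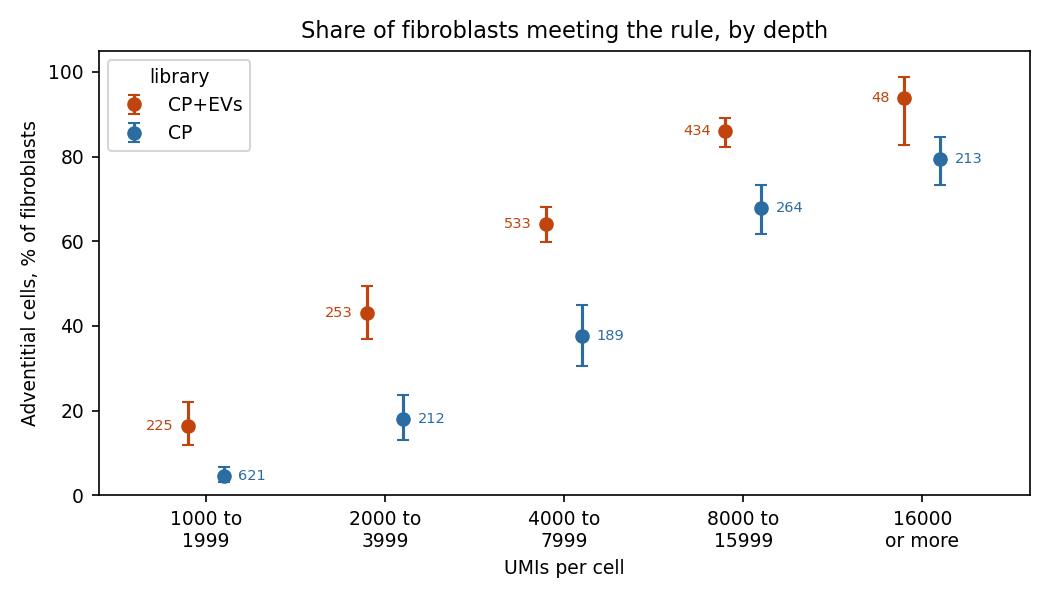
Share of fibroblasts that met the adventitial rule (vertical axis, percent) in 5 bands of UMIs per cell (horizontal axis), for CP+EVs and CP. Points are shares with exact 95% binomial intervals and small numbers give the fibroblasts in each band. The share rises with depth in both libraries, from 16.4% to 93.8% in CP+EVs and from 4.67% to 79.3% in CP.

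Cells at exactly 3 UMIs of the 3 genes were 10.9% of CP+EVs members and 15.8% of CP members. Mfap5 was at 1649 CPM in CP+EVs members at 3 UMIs and 1733 CPM in CP+EVs fibroblasts just below the threshold at 2 UMIs, and at 918 CPM and 1062 CPM in the same CP cells. CP+EVs members with 10 or more UMIs had 3065 CPM of Mfap5, and CP members 1859 CPM. Col15a1, a collagen of parenchymal fibroblasts, ran the other way, with 319 CPM in CP+EVs members at 10 or more UMIs, 1090 CPM in those at 3 and 1704 CPM in CP+EVs fibroblasts at 0. In CP the same series was 401, 794 and 789 CPM. Fibroblasts at 2 UMIs held 1267 CPM of Col15a1 in CP+EVs and 576 CPM in CP. Mfap5 in members just inside the limit was thus near its level in cells just outside it. Col15a1 in CP was higher just inside the limit than just outside it.

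Which other genes accompany the rule was read from the members against the other fibroblasts of the same library. Of 3562 genes measured in CP+EVs (at least 50 CPM in either set and 30 UMIs in sum, with past 2-fold meaning 2-fold or more), 3.03% were higher past 2-fold and 2.53% lower past 2-fold in members. Of 3541 genes measured in CP, 0.621% were higher past 2-fold and 3.25% lower past 2-fold. The 115 lower genes in CP numbered 37 among cells of at least 5000 UMIs, 35 with stricter limits on other cells and 298 with cells thinned to 1000 UMIs. Lower past 2-fold in CP members were also 8 of 9 measured leukocyte, 4 of 7 neutrophil and 3 of 3 acinar markers, whose part in the count was not tested. The rule genes are left out of these counts, and no test is given because the cells were chosen on their counts. Of 30 measured genes of the adventitial list in CP+EVs, 22 were higher past 2-fold and 0 lower in members (median log2 ratio 1.29, over all genes 0.02). In CP, 3 of 27 were higher past 2-fold and 0 lower (median 0.61, over all genes -0.0012). Among cells of at least 5000 UMIs the counts were 23 of 30 in CP+EVs and 4 of 27 in CP.

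Several of the leading companions encode surface or signalling proteins. Pcsk6, a secreted proprotein convertase, stood at 1120 CPM in CP+EVs members and 356 CPM in the other CP+EVs fibroblasts (3.14-fold, 2.93 to 3.38), and at 139 CPM in CP members and 41.3 CPM in the other CP fibroblasts (3.36-fold, 2.83 to 4.01). Anxa3, a calcium-dependent membrane-binding annexin, was higher 3.99-fold (3.62 to 4.42) in CP+EVs and 2.47-fold (2.25 to 2.71) in CP. Ackr3, a scavenging receptor of Cxcl12, was higher 3.65-fold (3.36 to 3.97) in CP+EVs and 2.26-fold (2.11 to 2.42) in CP. The hydroxylase gene Cmah, which makes a form of sialic acid, was higher 5.84-fold in CP+EVs and 2.81-fold in CP. Creb5, Tmem100, Galnt16, Aspn, Sfrp4 and Ly6c1 completed the 10 genes with the highest ratios in both libraries among those that passed the filters on level and free RNA, between 1.96-fold and 4.96-fold in CP+EVs and between 1.88-fold and 2.36-fold in CP. The EF-hand protein Efhd1 lay outside those filters in CP and had higher ratios in both libraries, with 175 CPM in CP+EVs members and 11.95 CPM in the other CP+EVs fibroblasts, and 23.97 CPM in CP members and 1.61 CPM in the other CP fibroblasts.

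Of 13 measured genes of the parenchymal list, 0 were higher past 2-fold and 7 lower past 2-fold in CP+EVs members (median log2 ratio -1.05). In CP, 0 of 11 were higher and 1 lower (median -0.13). Over all measured genes, 2.53% were lower past 2-fold in CP+EVs members and 3.25% in CP members. Cxcl14, a chemokine-like protein, stood at 60.8 CPM in CP+EVs members and 481 CPM in the other CP+EVs fibroblasts, and at 29.9 CPM in CP members and 136 CPM in the other CP fibroblasts. Sparcl1, a matricellular protein, stood at 829 CPM in CP+EVs members and 2382 CPM in the other CP+EVs fibroblasts, against 407 CPM in CP members and 524 CPM in the other CP fibroblasts. Enpp2, the enzyme autotaxin, and the BMP-family ligand Gdf10 were also lower in members of both libraries, Enpp2 at 145 CPM against 305 CPM in the other CP+EVs fibroblasts and 82.8 CPM against 315 CPM in the other CP fibroblasts. Gdf10 stood at 282 CPM in CP+EVs members and 682 CPM in the other CP+EVs fibroblasts, and at 162 CPM in CP members and 316 CPM in the other CP fibroblasts. The fibrillar collagen list did not separate the sets, since 0 of 25 genes in CP+EVs and 0 of 26 in CP lay past 2-fold in either direction.

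**Figure D2:**
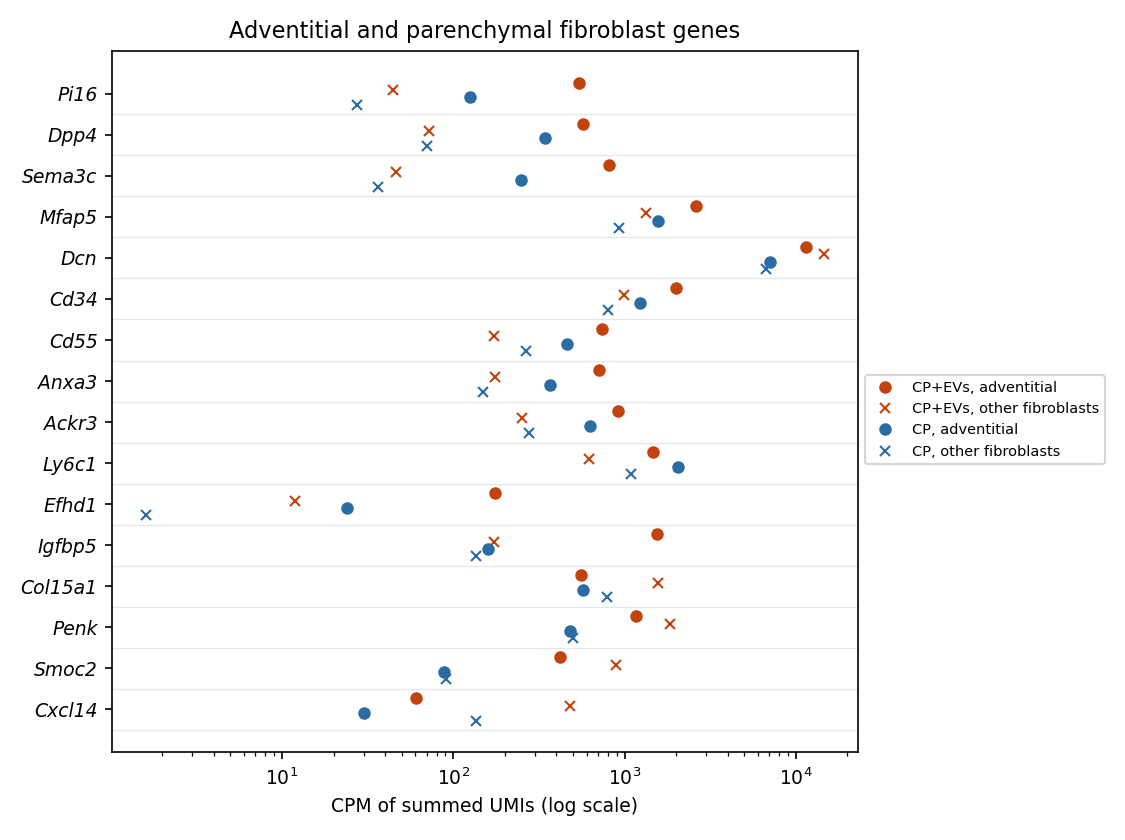
Levels of 16 genes as CPM of summed UMIs (horizontal axis, log scale) in adventitial cells (circles) and other fibroblasts (crosses) of the CP+EVs and CP libraries. Pi16, Dpp4 and Sema3c chose the cells. Circles lie right of crosses for Efhd1 and Anxa3 in both libraries and left of them for Cxcl14, while Igfbp5 is at 1544 CPM in CP+EVs members and between 135 and 174 CPM in the other 3 sets.

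Between the libraries, members differed in both directions by like numbers of genes. Of 3679 measured genes, 6.14% were higher past 2-fold (226 genes) and 6.22% lower past 2-fold (229 genes) in CP+EVs members, with a median log2 ratio over all genes of 0.04. In the other fibroblasts, 6.22% of 3760 measured genes were higher past 2-fold and 7.71% lower in CP+EVs.

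Saa3 (chr7:46711998-46715700, minus strand), a serum amyloid A induced in inflamed tissue, stood at 3.19 CPM (2.04 to 4.75) in CP+EVs members and 1978 CPM (1944 to 2012) in CP members, 619.7-fold lower (416 to 968). Lcn2, an iron-scavenging lipocalin, stood at 3.99 CPM (2.69 to 5.70) in CP+EVs members and 571 CPM (553 to 589) in CP members. In CP it stood at 642 CPM in leukocytes and 601 CPM over the whole library, so it was no mark of members. The part of free transcripts in the Lcn2 level of CP members was not tested. The serine protease inhibitor Serpina3n was 14.8-fold lower (13.8 to 15.8), with 120 CPM in CP+EVs members and 1774 CPM in CP members, and the haemoglobin-binding protein Hp was 7.11-fold lower (6.24 to 8.13). Of the list, 1 of 11 measured acute-phase genes was higher past 2-fold and 6 lower past 2-fold in CP+EVs (median log2 ratio -1.27). The higher member was Il6ra, the interleukin 6 receptor chain, at 196 CPM in CP+EVs members and 73.4 CPM in CP members. For all measured genes the shares were 6.14% higher past 2-fold and 6.22% lower. Saa3 was no mark of these cells, since in CP it stood at 3735 CPM in the other fibroblasts and at 553 CPM in leukocytes. After thinning, 0.110% of CP+EVs members and 39.1% of CP members had a Saa3 UMI, and 23.7% of CP leukocytes did.

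Timp1, an inhibitor of metalloproteinases, stood at 37.4 CPM (33.1 to 42.0) in CP+EVs members and 728 CPM (707 to 749) in CP members. Its relatives went the other way, Timp3 with 186 CPM in CP+EVs members and 23.97 CPM in CP members (7.77-fold higher, 6.59 to 9.23) and Timp2 with 6189 CPM and 1570 CPM (3.94-fold higher, 3.86 to 4.03). Among the proteinases, the stromelysin Mmp3 was 5.37-fold lower, the gelatinase Mmp2 was 2.13-fold lower and the aggrecanase Adamts5 was 3.29-fold higher (3.17 to 3.41). Of 15 measured metalloproteinases and inhibitors, 4 were higher past 2-fold and 5 lower past 2-fold in CP+EVs members. Over all measured genes, 6.14% were higher past 2-fold and 6.22% lower. The lubricin gene Prg4 (6.78 CPM in CP+EVs and 132 CPM in CP), the cell adhesion gene Chl1 (48.7 CPM and 695 CPM) and Tmem176a (39.2 CPM and 258 CPM) completed the 8 lowest ratios among genes with at least 100 CPM and 100 UMIs in the higher library that passed the filter on free RNA.

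**Figure D3:**
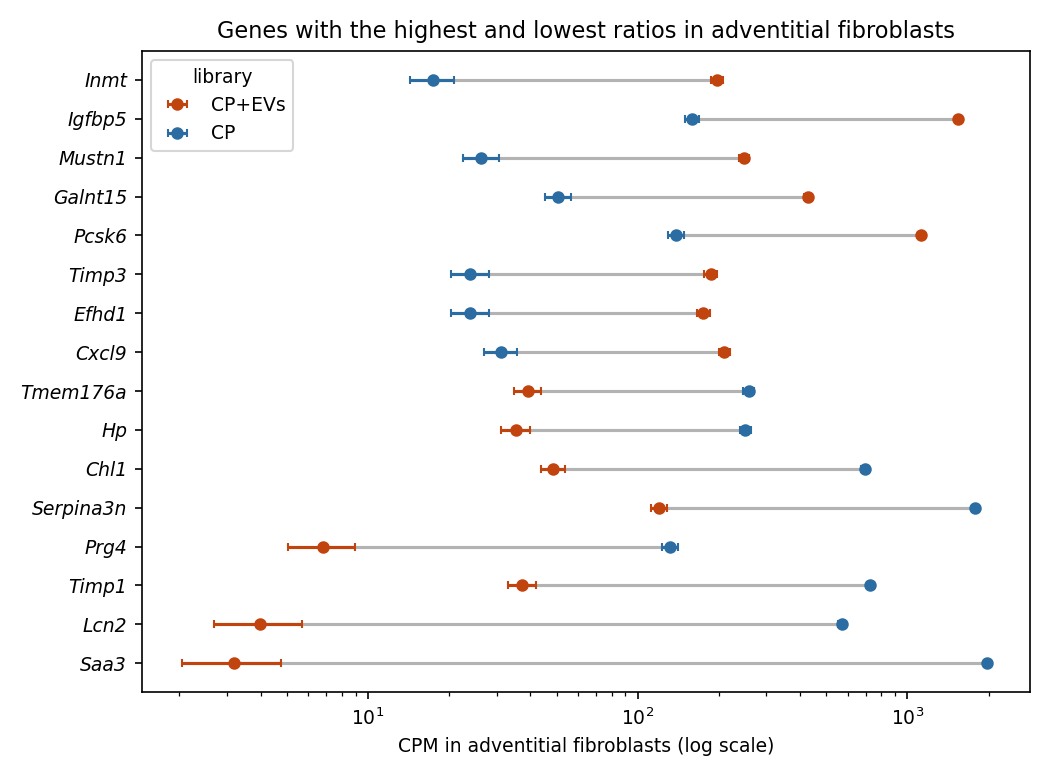
CPM in adventitial fibroblasts (horizontal axis, log scale) for the top 8 and the bottom 8 genes by CP+EVs over CP ratio that passed the filters on level and free RNA. Points are library values with exact 95% Poisson intervals. Saa3 has the widest gap, with 3.19 CPM in CP+EVs and 1978 CPM in CP.

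Under the same filters, Inmt, Igfbp5, Mustn1, Galnt15, Pcsk6, Timp3, Efhd1 and Cxcl9 had the 8 highest ratios. Igfbp5 (chr1:72857932-72874884, minus strand), a binding protein of insulin-like growth factors, stood at 1544 CPM (1516 to 1572) in CP+EVs members and 159 CPM (149 to 169) in CP members, 9.71-fold higher (9.12 to 10.4). In the other fibroblasts it stood at 174 CPM in CP+EVs and 135 CPM in CP. Members at exactly 3 UMIs of the rule genes held 220 CPM of Igfbp5 in CP+EVs and 153 CPM in CP. Those at 10 or more UMIs held 2334 CPM in CP+EVs and 190 CPM in CP, so the gap was not even among members. Igfbp6 stood at 805 CPM in CP+EVs members and 165 CPM in CP members. The ligand Igf1 was lower, at 340 CPM in CP+EVs members and 1779 CPM in CP members (5.24-fold lower, 5.02 to 5.47), and so was Igfbp4, at 3024 CPM and 6957 CPM. The methyltransferase Inmt was 11.3-fold higher (9.32 to 13.8), with 196 CPM in CP+EVs members and 17.4 CPM in CP members. Pcsk6 was 8.08-fold higher (7.54 to 8.66), Efhd1 7.30-fold higher (6.18 to 8.67), the glycosyltransferase Galnt15 8.46-fold higher and Mustn1 9.43-fold higher.

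Of 30 measured genes of the adventitial list, 11 were higher past 2-fold in CP+EVs members, 1 was lower past 2-fold and 18 lay within 2-fold (median log2 ratio 0.72). Pcolce2, an enhancer of procollagen processing, stood at 542 CPM in CP+EVs members and 195 CPM in CP members, the ferritin receptor Scara5 at 804 CPM and 294 CPM, and the receptor tyrosine kinase Axl at 1817 CPM and 755 CPM. The lower member was the alarmin Il33, at 222 CPM in CP+EVs members and 557 CPM in CP members. Ly6a and Ly6c1 lay within 2-fold. Of 13 measured parenchymal genes, 8 were higher past 2-fold and 1 lower in CP+EVs members (median 1.03), among them Smoc2 (420 CPM and 88.4 CPM) and the lipase Lpl (1443 CPM and 576 CPM). The lower gene was the chemokine Cxcl12, at 149.9 CPM in CP+EVs members and 819 CPM in CP members. In the other fibroblasts, 11 of 13 measured parenchymal genes were higher past 2-fold in CP+EVs and 1 lower (median 2.18). The higher levels of this list were thus not particular to members. Beside the counts in members, 6.14% of all measured genes were higher past 2-fold and 6.22% lower.

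Of 15 measured remodelling and myofibroblast genes, 0 were higher past 2-fold and 8 lower past 2-fold in CP+EVs members (median log2 ratio -1.04). Among all measured genes, 6.14% were higher past 2-fold and 6.22% lower. Cthrc1, a secreted protein of activated fibroblasts, stood at 6.25 CPM in CP+EVs members and 73.1 CPM in CP members, the periostin gene Postn at 237 CPM and 585 CPM, and the metalloproteinase Adam12 at 20.7 CPM and 117 CPM. Tnc, Cthrc1 and Postn summed to at least 3 UMIs in 20.7% of CP+EVs members (18.1 to 23.4) and 56.8% of CP members (52.3 to 61.2). After thinning to 1000 UMIs, Postn had a UMI in 13.5% of CP+EVs members and 30.5% of CP members, against 0.976% of CP+EVs leukocytes and 1.75% of CP leukocytes.

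Of 26 measured genes of fibrillar collagens and their crosslinking, 0 were higher past 2-fold and 7 lower past 2-fold in CP+EVs members, while 19 lay within 2-fold (median log2 ratio -0.60). Among the 7 are Col1a1 (4914 CPM in CP+EVs members and 15398 CPM in CP members) and Col3a1 (8483 CPM and 26604 CPM). Col1a2 was also lower past 2-fold, at 6052 CPM in CP+EVs members and 13146 CPM in CP members. The rule used these collagens, so their levels are given as a description. The count of 7 thus holds genes that chose the cells. Dcn, the rule's remaining matrix gene, was the higher in CP+EVs members. Serpinh1, the collagen chaperone HSP47, stood at 909 CPM in CP+EVs members and 3179 CPM in CP members, and the crosslinking oxidase Lox at 665 CPM and 1764 CPM. Of 11 measured basement membrane genes, 4 were higher past 2-fold and 0 lower (median 0.83). Laminin alpha 2, Lama2, stood at 474 CPM in CP+EVs members and 121 CPM in CP members, and the nidogen Nid1 at 5152 CPM and 2256 CPM. Elastic fibre genes split, with 2 of 17 higher past 2-fold and 5 lower past 2-fold. The latent TGF-beta binding protein Ltbp4 led the higher genes (417 CPM and 74.1 CPM). Among the lower were Mfap4 (93.9 CPM and 422 CPM) and the elastin gene Eln (308 CPM and 733 CPM). Beside the counts of these lists, 6.14% of all measured genes were higher past 2-fold and 6.22% lower.

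Proteins bound for secretion are folded in the endoplasmic reticulum. Of 20 measured genes of this folding machinery, 0 were higher past 2-fold, 8 were lower past 2-fold and 12 lay within 2-fold in CP+EVs members (median log2 ratio -0.94). Calr (chr8:84841850-84846934, minus strand), the calcium-binding chaperone calreticulin, stood at 1013 CPM in CP+EVs members and 2804 CPM in CP members (2.77-fold lower, 2.69 to 2.84). The disulphide isomerases Pdia4, Pdia6, Pdia3 and P4hb were between 2.44-fold and 3.02-fold lower. Of 11 measured glycolysis and hypoxia genes, 0 were higher past 2-fold and 2 lower, Gapdh (67.0 CPM and 210.1 CPM) and Hif1a (81.9 CPM and 226 CPM). Across all measured genes, 6.14% were higher past 2-fold and 6.22% lower.

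Chemokines did not move as a block. Of 10 measured, 3 were higher past 2-fold and 5 lower past 2-fold in CP+EVs members (median log2 ratio -1.01). Cxcl9, which attracts T cells and is induced by interferon gamma, stood at 209.6 CPM in CP+EVs members and 31.1 CPM in CP members (6.73-fold higher, 5.81 to 7.82). Ccl11, the eosinophil attractant eotaxin, stood at 605 CPM in CP+EVs members and 199 CPM in CP members. The B cell attractant Cxcl13 was 5.94-fold lower (5.21 to 6.79), and the neutrophil attractant Cxcl1 was 2.27-fold lower, at 838 CPM in CP+EVs members and 1904 CPM in CP members. Of 15 measured NF-kB feedback and inflammatory genes, 2 were higher past 2-fold, Cebpd and Socs3, and 2 lower past 2-fold, Il6 (215 CPM and 645 CPM) and Vcam1 (24.7 CPM and 55.6 CPM). Over all 3679 measured genes, 6.14% were higher past 2-fold and 6.22% lower.

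Of 18 measured TGF-beta and BMP genes, 1 was higher past 2-fold and 2 were lower (median log2 ratio -0.11), with the ligand Bmp7 at 50.8 CPM in CP+EVs members and 15.0 CPM in CP members. Of 13 measured Wnt genes, 0 were higher and 1 was lower past 2-fold (median -0.03). Of 18 measured proteoglycan and hyaluronan genes, 2 were higher and 2 lower past 2-fold (median 0.21), among them Prelp at 399 CPM in CP+EVs members and 170.1 CPM in CP members, and Lum at 379.5 CPM and 885 CPM, both of the leucine-rich family. Of 10 measured complement genes, 1 was higher, the terminal component C7 (62.6 CPM and 11.1 CPM), and 1 was lower, the receptor C5ar1 (2.79 CPM and 53.7 CPM), which neutrophils carry. Beside these counts, 6.14% of all measured genes were higher past 2-fold and 6.22% lower.

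Interferon signalling and STING stand in the title of the study. Of 13 measured interferon gamma-induced genes, 6 were higher past 2-fold and 0 lower in CP+EVs members (median log2 ratio 0.95). After Cxcl9 came the transcription factor Irf1 (280 CPM and 80.3 CPM, 3.49-fold higher, 3.17 to 3.84) and the guanylate-binding protein Gbp2 (431 CPM and 135 CPM, 3.18-fold, 2.95 to 3.43). The 6 also include Ifngr1 (297 CPM and 101 CPM), a chain of the interferon gamma receptor and not a marker of the response to it. Reads of Gbp2 may be shared with its close copy Gbp2b. Irf1 stood at 94.1% of its whole-library level in CP+EVs members, and leukocytes make it too. The part of free transcripts in its level was not tested. Of 23 measured type I interferon-stimulated genes, 2 were higher past 2-fold and 0 lower (median 0.08), Ifi207 (468 CPM and 182 CPM) and Ifit2 (65.3 CPM and 28.2 CPM). The shares over all measured genes were 6.14% higher past 2-fold and 6.22% lower. Of 10 measured MHC class I genes, 0 lay past 2-fold (median 0.45), and of 8 measured STING pathway genes 0 did (median -0.07).

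The STING adaptor and its DNA sensor were low in these cells. Sting1, the adaptor, stood at 17.6 CPM in CP+EVs members and 37.3 CPM in CP members, and at 25.1 CPM and 55.4 CPM in the other fibroblasts. Cgas, which senses cytosolic DNA, stood at 11.04 CPM in CP+EVs members and 10.2 CPM in CP members. The kinase Tbk1 stood at 33.5 CPM and 29.2 CPM, and the transcription factor Irf7 at 30.2 CPM and 30.8 CPM, in CP+EVs and CP members in that order. None of these 4 genes reached the 50 CPM needed to count as measured. After thinning, 1.77% of CP+EVs members and 3.29% of CP members had a Sting1 UMI, below the 5.33% and 6.20% of leukocytes.

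**Figure D4:**
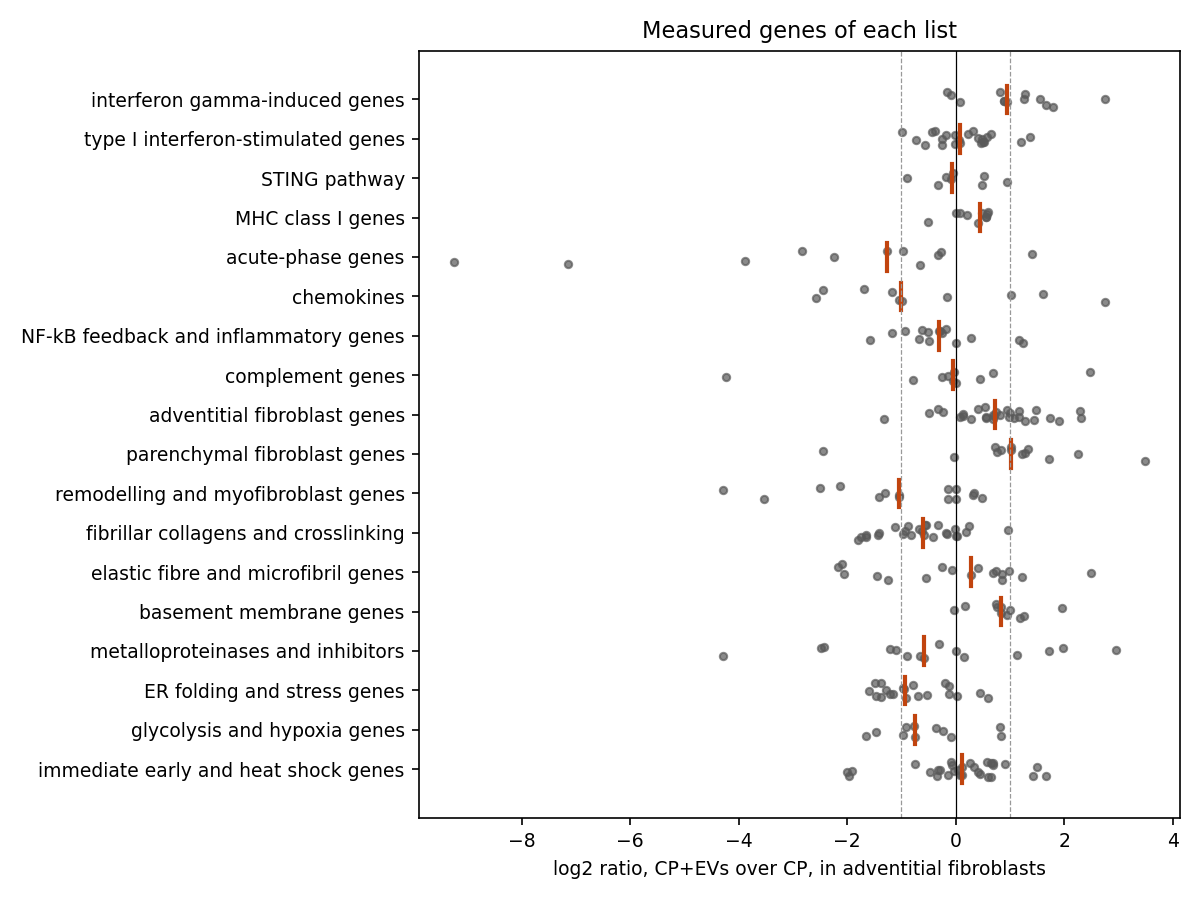
Log2 ratio of CP+EVs over CP in adventitial fibroblasts (horizontal axis) for the measured genes of 18 lists (rows). Points are genes, spread vertically only for legibility, orange bars are list medians and dashed lines mark 2-fold. Interferon gamma-induced genes have a median of 0.95 and acute-phase genes of -1.27.

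Promoters of the interferon gamma, acute-phase and folding lists, chosen with the values known, were read for known motifs, on both strands, in windows of 250 bases before to 50 after the gene start (RefSeq, GRCm38.p6, the same assembly as mm10). Motifs were the interferon gamma-activated site GAS (TTC and GAA, 3 bases apart), the interferon-stimulated response element ISRE (TTTC and TTTC, 2 bases apart), a kappa B site (GGG and TTTCC, 2 bases apart) and the endoplasmic reticulum stress element ERSE (CCAAT and CCACG, 9 bases apart), the last added after the values were seen. Over 32851 promoters they occurred in 8.30%, 3.44%, 1.63% and 0.119%. These shares are per promoter, while a gene below was counted if any of its promoters matched. Of 11 interferon gamma-induced genes with a promoter, 4 held a GAS (Gbp7, Igtp, Irf1 and Irgm2) and 7 an ISRE (Cxcl10, Gbp2, Gbp3, Gbp7, Igtp, Irgm1 and Irgm2). Of 17 folding genes, 7 held an ERSE (Calr, Canx, Creld2, Dnajc3, Hsp90b1, Hspa5 and Pdia6), of which Calr, Creld2 and Pdia6 were lower past 2-fold in CP+EVs members. Of 10 acute-phase genes, 2 held the kappa B letters, Serpina3n and Steap4. No GAS or ISRE was found in the promoter of Cxcl9, and no ERSE in that of Pdia4. A match describes the letters and is no evidence of binding. A promoter each of an interferon gamma gene with GAS, of one with ISRE and of a folding gene with ERSE is printed with the motif in capitals, followed by that of Saa3, the gene with the lowest ratio, in which the kappa B letters were not found. Each is written 5′ to 3′ on the strand of its gene, and in Calr the capitals hold the ERSE as read from the opposite strand. RefSeq lists 2 promoters of Irf1, and the one printed is the one with GAS.
Irf1 promoter, chr11:53769764-53770063, plus strand: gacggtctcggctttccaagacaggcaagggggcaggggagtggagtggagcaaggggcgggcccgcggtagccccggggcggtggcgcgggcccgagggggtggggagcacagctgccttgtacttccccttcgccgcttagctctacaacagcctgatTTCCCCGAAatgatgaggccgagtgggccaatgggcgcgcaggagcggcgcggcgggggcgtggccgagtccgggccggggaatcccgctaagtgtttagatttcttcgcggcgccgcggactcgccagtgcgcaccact
Gbp2 promoter, chr3:142620413-142620712, plus strand: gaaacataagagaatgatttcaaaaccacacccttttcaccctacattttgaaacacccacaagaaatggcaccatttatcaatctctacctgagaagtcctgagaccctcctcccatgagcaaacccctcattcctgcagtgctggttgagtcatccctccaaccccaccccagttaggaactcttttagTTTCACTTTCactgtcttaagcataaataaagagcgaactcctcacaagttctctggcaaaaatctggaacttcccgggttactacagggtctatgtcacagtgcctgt
Calr promoter, chr8:84846882-84847181, minus strand: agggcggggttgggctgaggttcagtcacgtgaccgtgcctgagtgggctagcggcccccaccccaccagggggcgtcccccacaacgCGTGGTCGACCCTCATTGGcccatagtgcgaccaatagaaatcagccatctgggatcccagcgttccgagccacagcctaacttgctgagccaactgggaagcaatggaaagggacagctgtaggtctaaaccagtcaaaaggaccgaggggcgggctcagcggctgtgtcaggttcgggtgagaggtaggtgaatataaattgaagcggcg
Saa3 promoter, chr7:46715627-46715926, minus strand: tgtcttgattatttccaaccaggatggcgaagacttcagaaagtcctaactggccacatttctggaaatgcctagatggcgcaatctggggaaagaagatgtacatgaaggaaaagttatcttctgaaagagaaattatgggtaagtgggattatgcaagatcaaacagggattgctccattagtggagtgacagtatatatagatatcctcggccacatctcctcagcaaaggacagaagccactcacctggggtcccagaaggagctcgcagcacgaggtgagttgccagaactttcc

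The other fibroblasts are set beside the members for the same genes. Saa3 stood at 5.36 CPM in CP+EVs and 3735 CPM in CP in the other fibroblasts, Timp1 at 49.9 CPM and 730 CPM, and Cxcl9 at 176 CPM and 30.5 CPM. Of 13 interferon gamma-induced genes measured there, 4 were higher past 2-fold in CP+EVs and 0 lower (median log2 ratio 0.64). Lower past 2-fold were 6 of 11 acute-phase genes (median -1.08), 6 of 19 folding genes (-0.66) and 6 of 15 remodelling genes (-0.54). In each of these lists 0 were higher. Of 26 adventitial genes, 4 were higher and 2 lower (-0.16). Shares over all genes measured in the other fibroblasts were 6.22% higher past 2-fold and 7.71% lower. Genes whose ratio in members differed most from that in the other fibroblasts were picked after the values were seen, and the difference between ratios was not tested. Igfbp5 had a log2 ratio of 3.28 in members and 0.36 in the other fibroblasts, and Mustn1 3.23 and 1.35. Thy1, the surface protein CD90, had 1.45 and 0.24. Trim30d had 1.24 and -0.08, and Sfrp4, a secreted Wnt antagonist, -0.55 and -1.88. On the other side, the matrix Gla protein Mgp stood at 770 CPM in CP+EVs members and 910 CPM in CP members, and at 3160 CPM and 1119 CPM in the other fibroblasts. Hsd11b1, which activates glucocorticoids, had log2 ratios of 0.73 in members and 2.34 in the other fibroblasts, Mfap4 -2.17 and -0.55, and Spon1 -1.56 and -0.14.

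**Figure D5:**
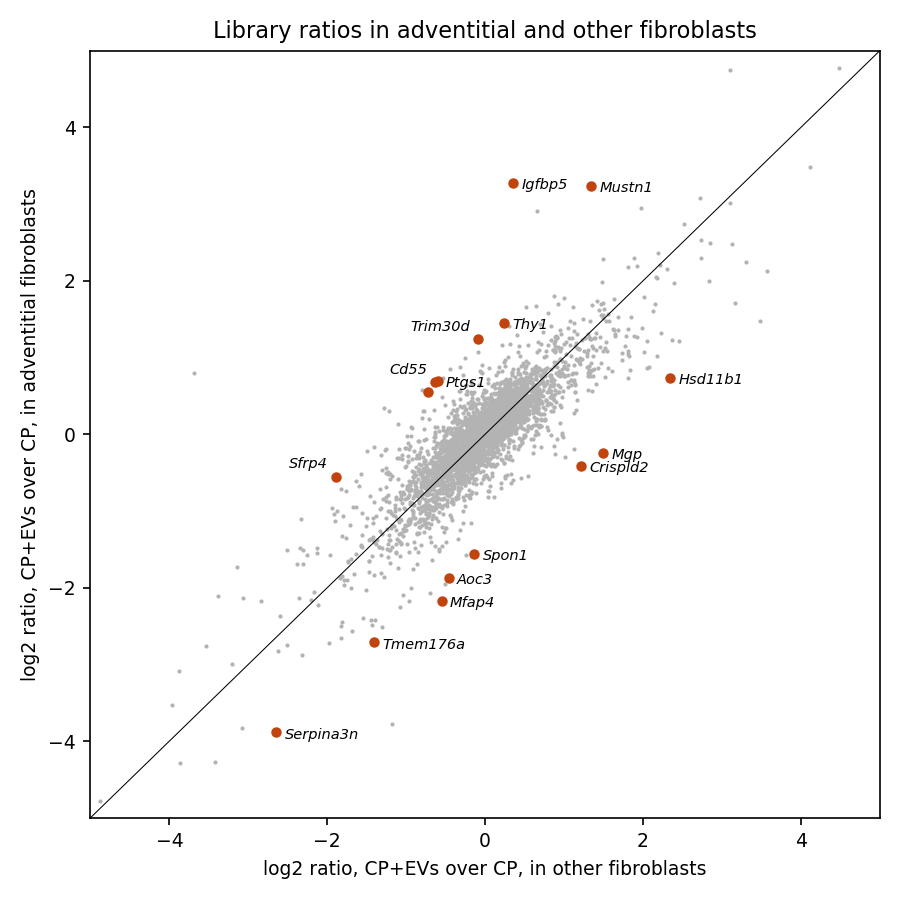
Log2 ratio of CP+EVs over CP in adventitial fibroblasts (vertical axis) against that in other fibroblasts (horizontal axis) for 3448 genes measured in both, of which 32 lie outside the axes. Orange points are the genes with the largest gap between the ratios among those that passed the filters on level and free RNA, and the line marks equal ratios. Igfbp5 lies at 3.28 in members and 0.36 in other fibroblasts.

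Cells of a library differed among themselves. Acinar enzyme genes led in CP+EVs (Cela1 with a variance 12.5 times its mean) and, with immunoglobulin genes, are left out of what follows. After thinning to 1000 UMIs, the variance of Igfbp5 counts over cells was 7.79 times their mean in CP+EVs, with a UMI in 34.1% of members. Cxcl9 had a variance 7.83 times its mean there and a UMI in 4.53% of members. Mgp had 9.62 times and a UMI in 23.5%. In CP, Saa3 had a variance 9.70 times its mean with a UMI in 39.1% of members, and Cxcl13 5.19 times with a UMI in 6.79%. Col1a1 was variable in both libraries, at 5.04 times in CP+EVs and 7.77 times in CP, although 92.0% and 99.8% of members had a UMI. The other genes among the 10 most variable were Col3a1, Sparc, Cxcl14, Cilp, Tnfaip6 and Cdkn1c in CP+EVs and Col1a2, Col3a1, Cxcl1, Eln, Tnfaip6, Kcnq1ot1 and Malat1 in CP.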

How the data were processed

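Cells came from mouse pancreas on the BD Rhapsody platform, per the labels. Each deposited matrix gives whole UMI counts for a gene in a barcode, with no normalization. The submitters' processing notes list CASAVA 1.8, UMI-tools, Seurat and mm10 and give no roles. The sources used here name neither the aligner nor the step that called cells. Of 31253 gene identifiers, 31107 matched GENCODE vM21. Where a symbol occurred repeatedly (43 symbols), the identifier with the highest count stood for it.

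The rule was applied per barcode in Python 3.11.15 with NumPy 2.4.6 and SciPy 1.17.1. No doublet caller was run, and mixed cells may remain. UMIs of a set of cells were summed per library and expressed as CPM. Log2 ratios add 0.5 counts to each sum, and folds are ratios of CPM. Intervals are exact Poisson for levels, exact and conditional on the summed count for ratios, and exact Clopper-Pearson for shares. The step for ratios was run on simulated Poisson counts, which hold no variation between cells beyond counting. A gene was measured at 50 CPM in either sum and 30 UMIs in all.

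Named genes were the 8 highest and 8 lowest library ratios, the 10 genes with the highest and 6 with the lowest ratios to other fibroblasts in both libraries, list members with large ratios and the 10 most variable genes. Library ratios needed 100 CPM, 100 UMIs and at least 50% of the whole-library level, and genes of acinar enzymes, immunoglobulins, haemoglobins, mitochondria and the Reg, Gm and Rik series were left out. Apoe, Gas6 and Cdh11, also taken by this rule, were 2.69-fold, 2.14-fold and 2.59-fold lower in members than in other fibroblasts in CP+EVs and 1.94-fold, 1.85-fold and 1.83-fold lower in CP. Members, gene lists and rules were chosen with earlier results of these data known. The 35 lists included lists of other cell types.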

Additional observations from a re-analysis of the deposited data

Results flagged for a closer look

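Cd55 and Ptgs1 went opposite ways in members and in the other fibroblasts by at least 1.5-fold each, with 1 library a group, and this difference was not tested. Cd55, a complement-regulating surface protein of the adventitial list, had a log2 ratio of CP+EVs over CP of 0.68 in members (740 CPM in CP+EVs and 461 CPM in CP) and -0.63 in the other fibroblasts (172 CPM and 267 CPM). Among members at exactly 3 UMIs of the rule genes, Cd55 stood at 214 CPM in CP+EVs and 286 CPM in CP. Among members at 10 or more UMIs it stood at 970 CPM and 588 CPM. The direction for Cd55 thus varied among members with their rule gene UMIs, which was not tested further. Ptgs1, the cyclooxygenase COX-1, had 0.70 in members (150.0 CPM and 92.5 CPM) and -0.60 in the other fibroblasts (37.1 CPM and 56.5 CPM).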

How the results depend on the processing

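The share of fibroblasts meeting the rule was 1.87 times as high in CP+EVs as in CP, and in the other settings it was 1.315 (at least 2000 UMIs), 1.168 (at least 5000 UMIs, added after the data were seen), 1.481 (stricter limits on other cells), 2.143 (at least 5 UMIs of the rule genes), 2.882 and 4.879 (rule after thinning to 2000 and 1000 UMIs) and 3.138 (rule genes at least 0.1% of UMIs). Genes at least 2-fold higher and lower in CP+EVs than in CP members numbered 226 and 229, against 109 and 95 at 200 CPM or more, 3092 and 2674 with no filter on low counts, and 531 and 561 at 1.5-fold. Members over other fibroblasts in CP+EVs gave 108 and 90, against 44 and 27 at 200 CPM, 1030 and 2546 with no filter, and 252 and 194 at 1.5-fold, and 70 higher with the rule after thinning to 2000 UMIs. In CP they gave 22 and 115, against 6 and 20 at 200 CPM, 788 and 3129 with no filter, 96 and 205 at 1.5-fold, and 56 and 298 with cells thinned to 1000 UMIs. The lower count in CP was 273 with the mean of per-cell CPM, 36 with at least 2000 UMIs, 37 with at least 5000 UMIs, 34 with the rule after thinning to 2000 UMIs and 35 with stricter limits on other cells. The remaining 60 counts and shares stayed within 1.5 times or within the counting interval. No list median of at least 1.5-fold and no named ratio of at least 2-fold changed sign in the settings run, while 5 of 350 list medians and 16 of 588 ratios of named genes moved by over 1.5-fold. The cause was not tested. No paired analysis was possible because each group has 1 library, and no replicate could be left out. Free RNA and depth limit levels under the 50 CPM used here.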

Other observations

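Genes outside the lists also differed between the libraries in members. Zbtb16, Tsc22d3, Txnip and Tek were chosen after their values were seen. Zbtb16, a zinc finger factor that glucocorticoids induce, stood at 531 CPM in CP+EVs members and 128 CPM in CP members. Tsc22d3, which encodes the glucocorticoid-induced leucine zipper, stood at 153 CPM in CP+EVs members and 33.1 CPM in CP members. Txnip, an inhibitor of thioredoxin, stood at 319 CPM and 71.8 CPM. The angiopoietin receptor Tek, usually known from endothelium, stood at 123.4 CPM in CP+EVs members and 25.7 CPM in CP members, while the 9 endothelial genes summed to 54.7 CPM and 11.1 CPM. Of 12 measured growth factor and receptor genes of a list, 1 was higher past 2-fold and 2 were lower (median log2 ratio 0.20). The lymphatic growth factor Vegfd stood at 200.3 CPM in CP+EVs members and 697 CPM in CP members, and the keratinocyte growth factor Fgf7 at 41.1 CPM and 124 CPM. Immediate early and heat shock genes, which handling of tissue can raise, had 3 of 30 higher past 2-fold and 3 lower past 2-fold in CP+EVs members (median log2 ratio 0.11), with Hspa1a at 423 CPM and 134 CPM and Nr4a2 at 309 CPM and 1157 CPM. Reads of Hspa1a may be shared with its close copy Hspa1b. Beside the counts of both lists, 6.14% of all measured genes were higher past 2-fold and 6.22% lower.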
